A study of Mus musculus with 7 samples.

Results

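Genes that mark macrophages were followed in the colon of mice with TNBS colitis. They were chosen by symbol and comprised Tyrobp, Fcer1g, Csf1r, C1qb, Cd68, Lyz2, Cd14, Arg1 and Lgals3. These 9 genes, of 8251 genes on the array, were read by 14 of its 12422 probe sets for transcripts. One more probe set carried both Lyz1 and Lyz2 and was kept apart. Of the 9 genes, 7 had a signal of at least 100 in 1 or more RNA pools, which was the lower limit for all counts below. Cd68 stayed just under this limit and Fcer1g far under it, and both are described by their values.

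TNBS (trinitrobenzene sulphonic acid) is a hapten that, given into the bowel in ethanol, provokes an immune reaction and colitis. All mice were female CD-1 outbred animals, 10 to 12 weeks old at the start, and received 6 enemas of either TNBS in ethanol or saline. No group received ethanol without TNBS, so the comparisons set TNBS with ethanol against saline. The TNBS_w6 pool combined colon RNA from 6 mice taken 3 days after enemas ended. TNBS_w8 combined 4 mice at 2 weeks, TNBS_w10 combined 5 mice at 4 weeks and TNBS_w12 combined 4 mice at 6 weeks. RNA of 5 saline mice made up the saline_w6 pool, hybridised to 2 arrays, and 4 saline mice taken at 2 or 4 weeks made up the saline_w10 pool. Each group was therefore 1 pool of animals, with no replicate pool, and TNBS_w12 had no saline control of its own time.

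Macrophages of the gut wall are kept up by blood monocytes that mature in the tissue under the growth factor receptor Csf1r, and mature cells take up bacteria and dying cells without strong inflammation. In colitis, newly arrived monocytes and immature macrophages collect in the mucosa and make cytokines, proteases and antibacterial proteins. Many of their surface receptors have no signalling part of their own and rely on the adaptors Tyrobp (DAP12) and Fcer1g (the common Fc receptor gamma chain), whose tails carry an activation motif that recruits the kinase Syk. The markers are not specific to one cell type. Neutrophils and NK cells also use these adaptors, neutrophils make Lyz2 and Cd14, and Lgals3 is a product of the colon epithelium.

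Promoters were available for 5 of the 9 genes in RefSeq's sequences of build GRCm38.p6, and 2 of these are shown because C1qb and Lyz2 were both at least 2-fold higher in TNBS_w6. The letters GAGGAA, a core of the motif bound by the macrophage transcription factor PU.1, were searched on both strands (TTCCTC on the other strand) in windows from 250 bases before to 50 bases after each start site. They were found in 28.3% of 32851 promoter windows and in 2 of the 5 members' windows, those of C1qb and Cd68. The sequences give the 250 bases before the start site, 5′ to 3′ on the gene's strand, with GAGGAA in capitals. The C1qb stretch lies at chr4:136886201-136886450 on the minus strand and the Lyz2 stretch at chr10:117282273-117282522 on the minus strand.
C1qb: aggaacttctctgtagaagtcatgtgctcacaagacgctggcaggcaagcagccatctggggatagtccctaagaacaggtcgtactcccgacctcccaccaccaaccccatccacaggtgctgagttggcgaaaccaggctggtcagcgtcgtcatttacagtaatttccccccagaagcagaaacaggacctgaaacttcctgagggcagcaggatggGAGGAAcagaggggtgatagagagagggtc
Lyz2: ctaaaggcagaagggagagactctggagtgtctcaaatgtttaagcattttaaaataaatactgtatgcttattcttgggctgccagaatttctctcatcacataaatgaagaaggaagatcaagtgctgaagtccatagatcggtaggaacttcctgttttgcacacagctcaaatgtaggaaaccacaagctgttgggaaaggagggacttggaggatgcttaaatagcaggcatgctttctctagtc

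The single match in C1qb lay at positions -30 to -25 from the start site, and the Lyz2 window held none. The Cd68 window held 1 match on each strand, at -225 to -220 and at 30 to 35. A match is a string of letters in this window and not a shown binding site.

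Signals are those of Affymetrix Microarray Suite 5.0 on a linear scale, set by the authors to a target of 150 on every array. Signals under 50 were treated as unmeasured and set to 50, called the floor here, before log2 was taken. Array medians ranged over 51.8 to 61.2 signal units. The 2 arrays of the saline_w6 pool differed with an SD of 0.29 on the log2 scale over the 4316 genes that passed the limit. This SD covers labelling and hybridisation of 1 RNA pool and not the spread between mice. Of the colon's own markers, the keratin Krt8 gave 4275 to 7694 and the smooth muscle protein Tagln 3352 to 5502 over the 7 arrays. The epithelial marker Guca2a lay under the floor on all 7, at 24.6 or less. The 12 epithelial markers that passed the limit had a median log2 difference of -0.17 between TNBS_w6 and saline_w6, and Car4 among them was 2.02-fold lower.

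At 3 days after the last enema the colon gave higher signals for most of the macrophage markers, led by the adaptor Tyrobp, the arginase Arg1, lysozyme (Lyz2) and the complement chain C1qb. From 2 weeks on Tyrobp, Lyz2 and C1qb were within 1.5-fold of the later saline pool, and Arg1 was under the floor. Cd14, the co-receptor for bacterial lipopolysaccharide, was the one member above saline in every TNBS pool. Lgals3 (galectin 3) did not share the pattern and was lowest in the TNBS_w6 pool. With whole colon RNA, a larger number of macrophages and more marker RNA per macrophage cannot be told apart.

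**Figure D1:**
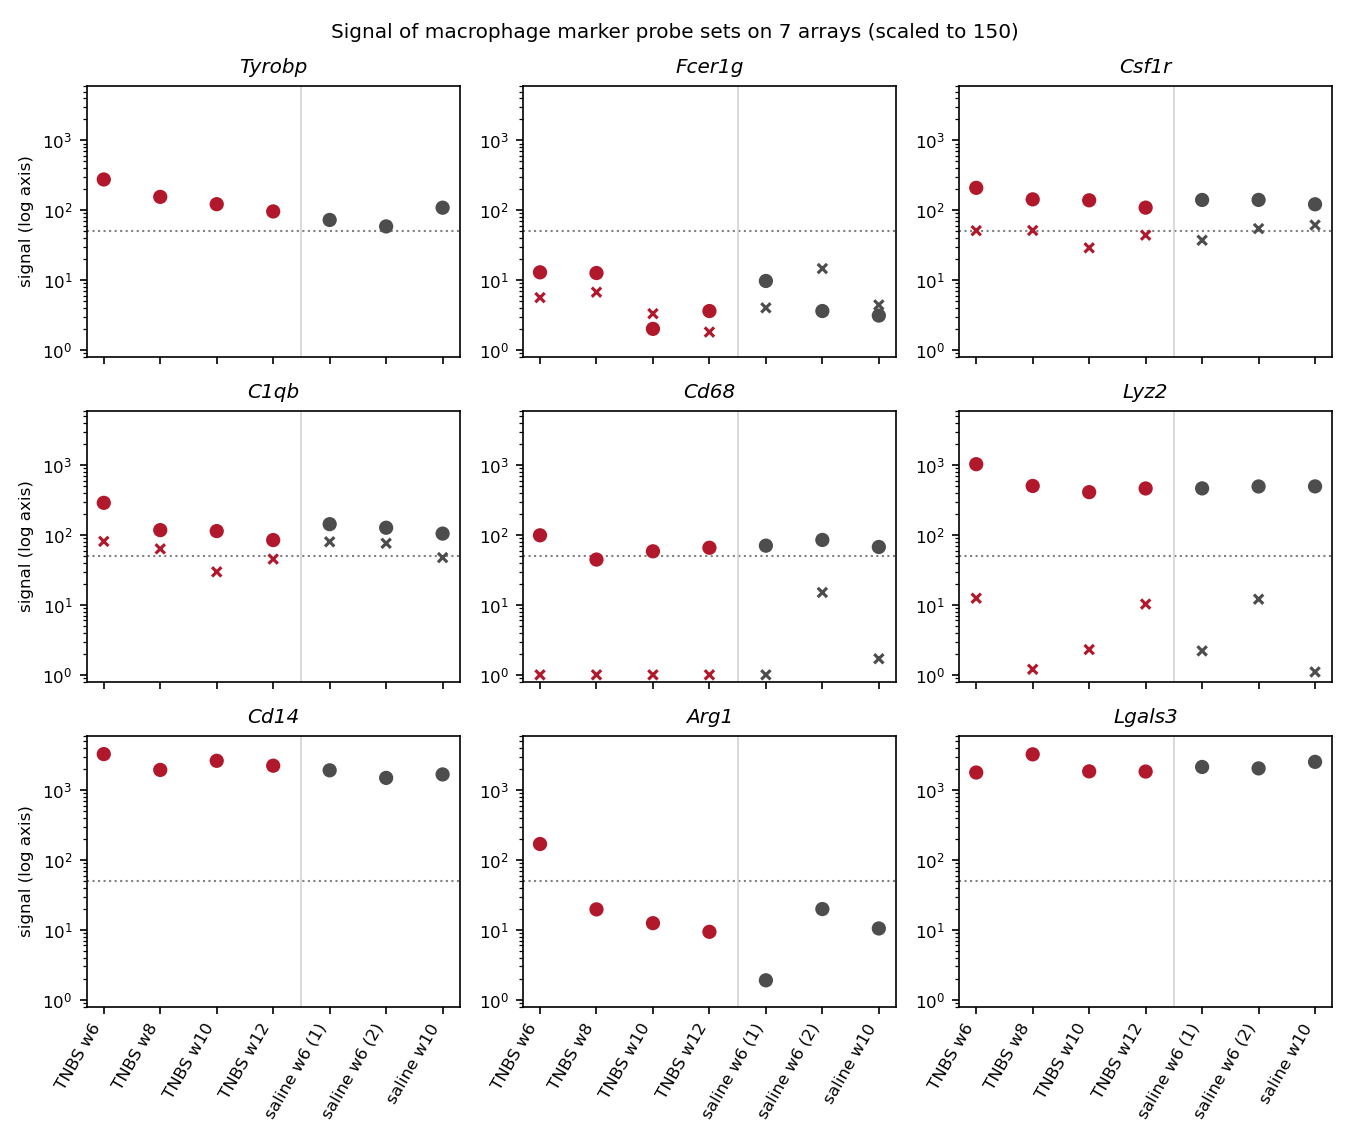
Signal of each probe set (log axis) on the 7 arrays, with TNBS arrays in red and saline arrays in grey. Circles are the probe set used for the gene, crosses its other probe sets, values under 1 are drawn at 1 and the dotted line is the floor of 50. Tyrobp, C1qb, Lyz2 and Arg1 stand highest on the TNBS_w6 array, and Fcer1g lies under the floor on all 7.

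The adaptors come first. Tyrobp, which carries signals of TREM and related receptors, had a signal of 275.3 in TNBS_w6, 155.2 in TNBS_w8, 121.9 in TNBS_w10 and 96 in TNBS_w12, against 72.5 and 58.6 on the saline_w6 arrays and 108.6 in saline_w10. The first 3 TNBS pools stood above all saline arrays, while TNBS_w12 lay between the saline pools. Tyrobp was 4.22-fold higher in TNBS_w6 than in saline_w6, a log2 difference of 2.08. The saline pools themselves were apart, with saline_w10 at 1.67-fold of saline_w6, so against saline_w10 the log2 difference of TNBS_w6 was 1.34. Against saline_w10 Tyrobp was 1.43-fold higher in TNBS_w8 and 1.12-fold higher in TNBS_w10, and 1.13-fold lower in TNBS_w12.

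Fcer1g, the partner of Fc receptors, could not be followed. Its 2 probe sets gave 1.8 to 12.9 in the TNBS pools and 3.1 to 14.6 on the saline arrays, all under the floor. No level or fold can be stated for Fcer1g from these arrays.

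Among the markers of resident macrophages, Csf1r, the receptor for the macrophage growth factors Csf1 and Il34, gave 209 in TNBS_w6, 143 in TNBS_w8, 138.6 in TNBS_w10 and 108.8 in TNBS_w12. It gave 140.2 and 140.4 on the saline_w6 arrays and 121.5 in saline_w10. Only the TNBS_w6 pool stood above all saline arrays by more than a few units, and its difference was 1.49-fold. The later TNBS pools were within 1.18-fold of saline_w10, TNBS_w12 on the lower side. A further Csf1r probe set read 28.9 to 51.3 in TNBS pools and 37.1 to 61.3 on saline arrays, near the floor throughout.

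C1qb encodes a chain of C1q, the first component of the classical complement pathway, which tissue macrophages make. Its signal was 290.1 in TNBS_w6, 118 in TNBS_w8, 114.3 in TNBS_w10 and 85 in TNBS_w12, against 143.6 and 127.6 on the saline_w6 arrays and 105.2 in saline_w10. TNBS_w6 stood alone at the top, 2.14-fold above saline_w6, and TNBS_w12 was the lowest of all arrays. Against saline_w10 C1qb was 1.12-fold higher in TNBS_w8, 1.09-fold higher in TNBS_w10 and 1.24-fold lower in TNBS_w12. Against saline_w6 all 3 were lower, with log2 differences of -0.20, -0.24 and -0.67, so the direction in TNBS_w8 and TNBS_w10 turned with the saline pool. The other C1qb probe set did not show this difference, with 81.4 in TNBS_w6 against 80.3 and 76.4 on the saline_w6 arrays. The mean of both probe sets gave a log2 difference of 0.58 at week 6.

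Cd68, a glycoprotein of macrophage endosomes and lysosomes, missed the lower limit of 100 with a highest signal of 99.5 in TNBS_w6. It gave 44.7 in TNBS_w8, 58.7 in TNBS_w10 and 66 in TNBS_w12, against 70.7 and 85.4 on the saline_w6 arrays and 67.7 in saline_w10. Its week 6 difference was 1.28-fold, and every later TNBS pool was below saline_w10. The member nearest to Cd68 on the other side of the limit was Arg1, whose highest signal was 169.9.

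The members tied to inflammatory and newly arrived cells did not move as one. Lyz2, the lysozyme of myeloid cells, gave 1038 in TNBS_w6, 506 in TNBS_w8, 412.6 in TNBS_w10 and 466 in TNBS_w12, against 467 and 497.5 on the saline_w6 arrays and 498.9 in saline_w10. Apart from TNBS_w6, which was 2.15-fold above saline_w6, all arrays lay in 1 narrow band. The other Lyz2 probe set stayed at 12.5 or less on all arrays and gave no level.

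Arg1, the arginase that many activated macrophages switch on, was measured in 1 pool alone. Its signal was 169.9 in TNBS_w6, against 1.9 and 19.9 on the saline_w6 arrays. In the later pools it was 19.7 in TNBS_w8, 12.5 in TNBS_w10 and 9.4 in TNBS_w12, against 10.5 in saline_w10, all under the floor. Arg1 was thus at least 3.40-fold higher in TNBS_w6. Because it passed the lower limit through that pool alone, a difference of at least 2-fold was fixed by the limit.

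Cd14 gave 3292 in TNBS_w6, 1954.5 in TNBS_w8, 2639.3 in TNBS_w10 and 2246.4 in TNBS_w12, against 1928.5 and 1502.1 on the saline_w6 arrays and 1684.2 in saline_w10. The TNBS and saline arrays did not overlap, although TNBS_w8 was barely above the first saline_w6 array. Of the 7 measured members Cd14 alone had every TNBS array above every saline array, and 4.96% of the 4316 genes did. Cd14 was 1.93-fold higher in TNBS_w6, and 1.16-fold, 1.57-fold and 1.33-fold higher in TNBS_w8, TNBS_w10 and TNBS_w12. The 2 saline_w6 arrays, of the same RNA, were 1.28-fold apart, so the TNBS_w8 difference was smaller than the difference between repeated arrays.

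Lgals3, a lectin of macrophages and of the colon epithelium, gave 1793.8 in TNBS_w6, 3266 in TNBS_w8, 1863.9 in TNBS_w10 and 1851.6 in TNBS_w12. It gave 2154.4 and 2055.2 on the saline_w6 arrays and 2549.2 in saline_w10. TNBS_w8 was the highest array and the other 3 TNBS arrays were below all saline arrays. Lgals3 was 1.17-fold lower in TNBS_w6, 1.28-fold higher in TNBS_w8, and 1.37-fold and 1.38-fold lower in TNBS_w10 and TNBS_w12. The summed signal of 14 colon epithelium markers was also highest in TNBS_w8, at 44236, and was 27247 to 30028 in the other TNBS pools. On the saline arrays the sum did not follow Lgals3. It was 41101 and 36319.7 on the saline_w6 arrays and lowest in saline_w10, at 33936.5, where Lgals3 was highest among the saline arrays. The part of the epithelium in the Lgals3 signal was not tested.

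**Figure D2:**
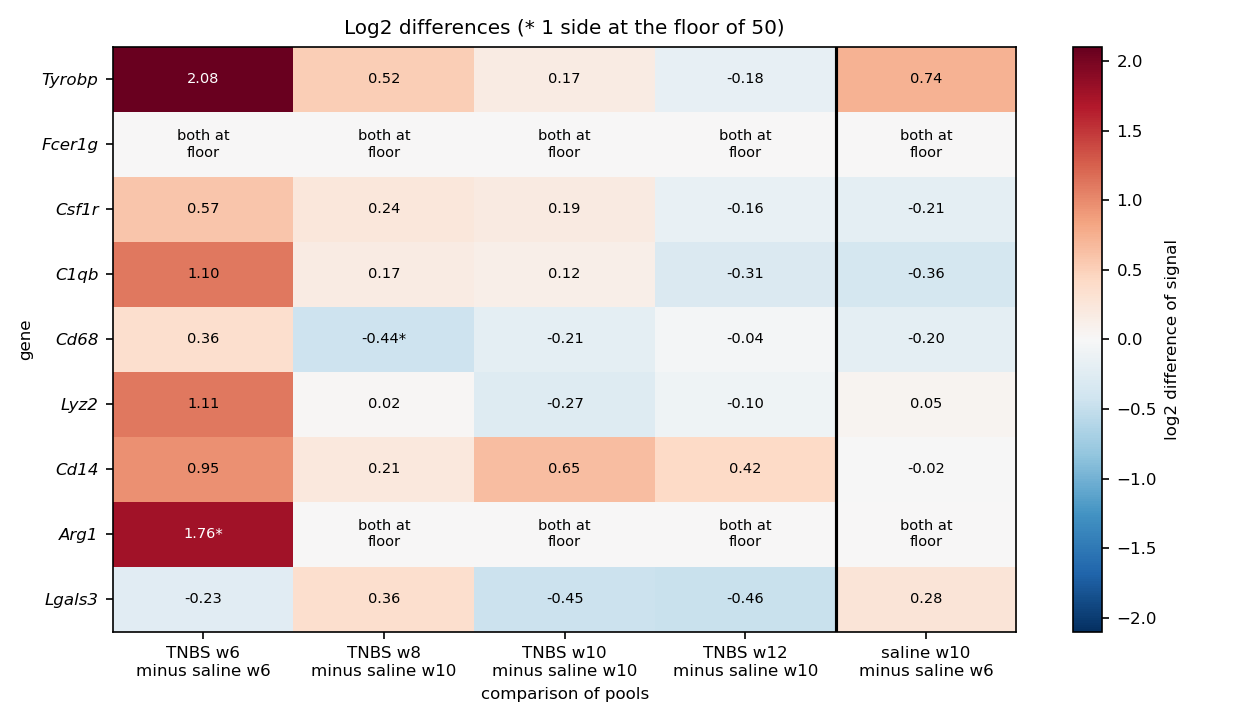
Log2 difference of signal for each marker gene (rows) in the 4 matched comparisons and, right of the line, between both saline pools. The first column holds the large positive values, led by Tyrobp at 2.08, and Tyrobp also differs by 0.74 between the saline pools.

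At week 6, 4 of the 7 measured markers were at least 2-fold higher in TNBS_w6 than in saline_w6, beside 2.55% of 4316 genes. They were Tyrobp, Arg1, Lyz2 and C1qb, and the difference of Arg1 was fixed by the lower limit. The markers were chosen with earlier results of these data known, so the count is a description. No marker was at least 2-fold lower, as 0.996% of genes were. The median log2 difference of the 7 measured markers was 1.10, beside -0.02 for all genes. When genes were kept by a mean log2 signal over the 6 pools equal to a signal of at least 100, to which all pools count equally, Arg1 left and 3 of 6 markers were at least 2-fold higher, against 1.98% of 3687 genes. The median was then 1.03, beside -0.02 for all genes. Array 1 of saline_w6 exceeded array 2 at least 2-fold in 0.348% of genes and fell short of it in 0.371%. For saline_w10 against saline_w6 these shares were 0.857% and 0.95%, with no marker among them in either case.

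In the later comparisons no marker was at least 2-fold higher or lower. Among all genes, 1.53% reached 2-fold upward and 1.76% downward in TNBS_w8, 0.834% and 0.649% in TNBS_w10, and 0.718% and 0.88% in TNBS_w12. The markers' median log2 difference was 0.21 in TNBS_w8, 0.12 in TNBS_w10 and -0.16 in TNBS_w12, beside -0.07, -0.0041 and 0 for all genes. The 3 later comparisons share the saline_w10 pool, so they are not independent. Against saline_w6 in its place, Tyrobp was 1.25 higher on the log2 scale in TNBS_w8 and was the 1 marker at least 2-fold higher there. In TNBS_w12 the log2 difference of Tyrobp was 0.56 against saline_w6 and -0.18 against saline_w10, and in TNBS_w10 that of Csf1r was -0.02 and 0.19.

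Over the 4 TNBS times Tyrobp, Csf1r and C1qb each gave a lower signal at every later time. This order, singled out after the values were seen, was met by 3 of the 7 measured markers and by 4.87% of genes. The TNBS_w12 signal was 34.9% of the TNBS_w6 signal for Tyrobp, 52.1% for Csf1r and 29.3% for C1qb. From saline_w6 to saline_w10 the log2 signal changed by 0.74 for Tyrobp, -0.21 for Csf1r and -0.36 for C1qb. Lyz2 reached its later band at TNBS_w8 already, at 48.8% of TNBS_w6, and Cd14 stayed at 59.4% to 80.2% of TNBS_w6. The resident markers Csf1r and C1qb were 0.57 and 1.10 higher on the log2 scale at week 6, C1qb 0.06 by its other probe set. Cd68, under the lower limit, was 0.36 higher. Of the 4 inflammatory markers, Lgals3, Cd14 and Lyz2 were at -0.23, 0.95 and 1.11. Arg1 was at 1.76 or more, of which a 2-fold difference was fixed by the limit. The classes overlapped without Arg1 too. At TNBS_w12 Csf1r, C1qb and Cd68 stood at -0.16, -0.31 and -0.04, and the inflammatory markers at -0.46 to 0.42. Beta-actin has probe sets at both ends of its transcript, and signal at the 3′ end over that at the 5′ end was 1.24 in TNBS_w6 and 0.801 to 0.818 in the later TNBS pools. The saline_w6 arrays gave 1.14 and 1.24 for this ratio, and saline_w10 gave 0.798. Its part in differences between week 6 and later arrays was not tested.

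Replicate error across pools allows weak tests only, in which pools of different times stand in for replicates. In limma's model of 4 TNBS pools against 2 saline pools, no gene of 4316 passed an adjusted p of 0.05 (0% higher, 0% lower), while 221 had an unadjusted p under 0.05. Cd14 had a log2 difference of 0.64 (SE 0.21, limma unadjusted p = 0.0148, adjusted p = 0.886, higher in 4 of 4 comparisons). Tyrobp had 0.93 (SE 0.40, limma unadjusted p = 0.0492, adjusted p = 0.886, higher in 3 of 4). For Arg1, C1qb, Lyz2 and Csf1r the limma estimates were 0.71, 0.44, 0.37 and 0.28, with adjusted p-values of 0.886 to 0.899, and for Lgals3 the estimate was -0.20 with an adjusted p of 0.935. Cd14 and Tyrobp were thus the markers with an unadjusted p under 0.05, and no marker passed after adjustment over 4316 genes.

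The later TNBS pools were also set against saline_w10 in limma, and again no gene passed (0% in either direction, 77 genes with an unadjusted p under 0.05). The largest estimate among the markers was that of Cd14, 0.43 (SE 0.27, adjusted p = 1). The difference in time itself, the TNBS effect at week 6 minus the later effect, passed for no gene either (0% in either direction, 80 genes with an unadjusted p under 0.05). Its estimates were 1.91 for Tyrobp (SE 0.54), 1.76 for Arg1 (SE 0.42), 1.22 for Lyz2 (SE 0.35) and 1.11 for C1qb (SE 0.48), all with a limma adjusted p of 0.999. Unadjusted limma p-values were 0.0139, 0.00662, 0.0143 and 0.0633 in the same order. Arg1 lay at the floor in all later pools, so its own spread was 0 and its SE came from the other genes. It passed the lower limit through TNBS_w6 alone, so an estimate of at least 2-fold was fixed by the limit and its p-value supports nothing.

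**Figure D3:**
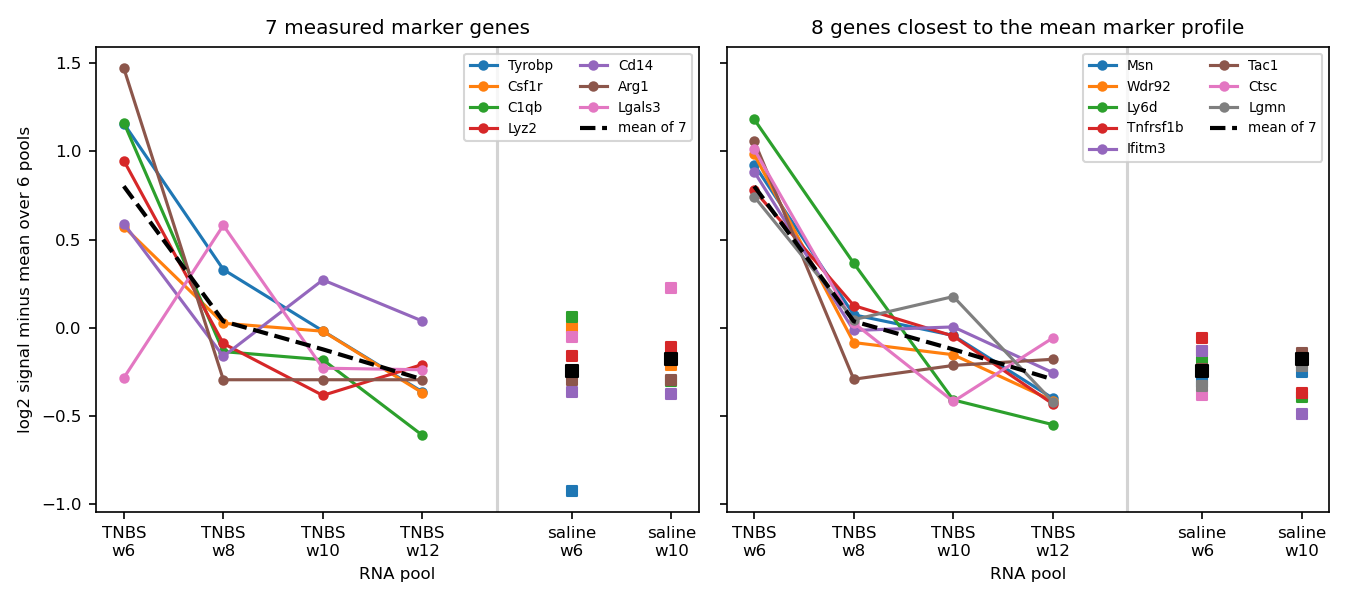
Log2 signal minus the gene's mean over the 6 pools, for the 7 measured markers on the left and the 8 genes closest to their mean profile on the right. Lines join the TNBS pools in order of time, squares are the saline pools, and the dashed line is the mean of the 7 markers, at 0.80 in TNBS_w6 and -0.29 in TNBS_w12.

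The markers resembled each other to different degrees over the 6 pools. Pearson's r, given as a description of pools that share the TNBS_w6 peak, was 0.978 for Csf1r with C1qb, 0.975 for Arg1 with Lyz2 and 0.932 for Arg1 with C1qb. Cd14 had r of 0.619 to 0.761 with the other measured markers except Lgals3, and Lgals3 had r of -0.615 to -0.032 with all 6.

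Of 727 other genes with a signal above the floor in all pools and a range of at least 2-fold, Msn came closest to the markers' mean profile, with r = 0.993 over 6 pools. Msn encodes moesin, which ties actin to the plasma membrane, and gave 457.3 in TNBS_w6, 182.6 to 253.5 in the later TNBS pools and 195 and 202.6 in the saline pools. Next came Wdr92 (r = 0.98), Ly6d, a surface protein (0.952), and Tnfrsf1b, a receptor for tumour necrosis factor (0.942). Ifitm3, an interferon-induced membrane protein, had 0.94 and Tac1, the precursor of substance P, 0.937. The lysosomal proteases Ctsc and Lgmn had 0.936 and 0.934, with 297.9 and 219.3 in TNBS_w6 and 98 to 150.8 in all other pools. Likeness over 6 points that share 1 high pool says little beyond that pool.

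The wider set of macrophage genes was read from lists. Of 24 genes of resident macrophages and their growth factors, 19 were on the array and 9 passed the lower limit. At week 6, 1 of the 9 was at least 2-fold higher and none lower, beside 2.55% and 0.996% of 4316 genes. Their median log2 difference was 0.02, or 0.37 over the 7 genes kept by their mean over pools. The gene at least 2-fold higher was C1qa, another C1q chain, with 562.4 in TNBS_w6 against 281.4 and 274.7 on the saline_w6 arrays, 2.02-fold higher. Later none was at least 2-fold apart, with medians of -0.03, 0.11 and -0.05 in TNBS_w8, TNBS_w10 and TNBS_w12.

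Resident genes with smaller differences are named for their role in defining the class. The third C1q chain, C1qc, gave 659.2 in TNBS_w6 against 435.5 and 316.9 on the saline_w6 arrays, 1.77-fold higher. Cx3cr1, the fractalkine receptor of tissue macrophages, gave 107.3 in TNBS_w6 against 107 and 106.7 on the saline_w6 arrays, a difference of 1.00-fold. Adgre1 (F4/80), the defining surface marker of mouse macrophages, gave 3.4 to 23.8 in TNBS pools and 8.2 to 25.4 on saline arrays, all under the floor. C1q chains and Cx3cr1, both of the resident list, thus gave different readings in the same RNA.

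Of 27 genes of inflammatory macrophages, 21 were on the array and 9 passed the lower limit. At week 6, 5 of the 9 were at least 2-fold higher and none lower, beside 2.55% and 0.996% of 4316 genes. Il1b, Saa3 and Arg2 passed through the TNBS_w6 pool alone, as Arg1 did, so their difference was fixed by the limit and the count supports nothing. Of the 5 genes kept by their mean over pools, 1 was at least 2-fold higher at week 6, beside 1.98% of 3687 genes. The median log2 difference of these 5 was 0.13. Arg2, the mitochondrial arginase, gave 113.3 in TNBS_w6, 36.2 in TNBS_w8, 66.2 in TNBS_w10 and 93.8 in TNBS_w12, against 33.9 and 34.9 on the saline_w6 arrays and 39.4 in saline_w10. Unlike Arg1, Arg2 was above the floor in TNBS_w10 and TNBS_w12.

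Mmp12, the macrophage elastase, gave 326.1 in TNBS_w6 against 52.7 and 42.4 on the saline_w6 arrays, at least 6.35-fold higher. In TNBS_w10 it gave 107.6 against 30.5 in saline_w10, at least 2.15-fold higher and the 1 gene of this list at least 2-fold higher at a later time. Ccl9, a chemokine of myeloid cells, gave 366.8 in TNBS_w6 against 129.7 and 165 on the saline_w6 arrays, 2.51-fold higher. Its level in saline_w10 was 260.2, so against that pool its difference at later times was 1.42-fold at most. The classical inflammatory enzyme Nos2 and the cytokines Tnf and Il6 reached at most 53.5, 31 and 5.6 in TNBS pools, against at most 34.1, 49.3 and 2.2 on saline arrays, so all 3 lay near or under the floor.

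Tyrobp and Fcer1g act through partner receptors and kinases, of which 15 of 24 listed genes were on the array. Of these, 9 lay under the floor on all arrays and 2 passed the lower limit, Syk and Btk. The kinase Syk, which binds the adaptors' motif, gave 521.1 in TNBS_w6 against 480.7 and 475 on the saline_w6 arrays, a difference of 1.09-fold. The kinase Btk gave 110.6 against 103.7 and 65.3, and no partner was at least 2-fold different in any matched comparison. The Fc receptor Fcgr2b gave 56.5 in TNBS_w6 against 19.9 and 23.7, at least 1.13-fold higher.

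**Figure D4:**
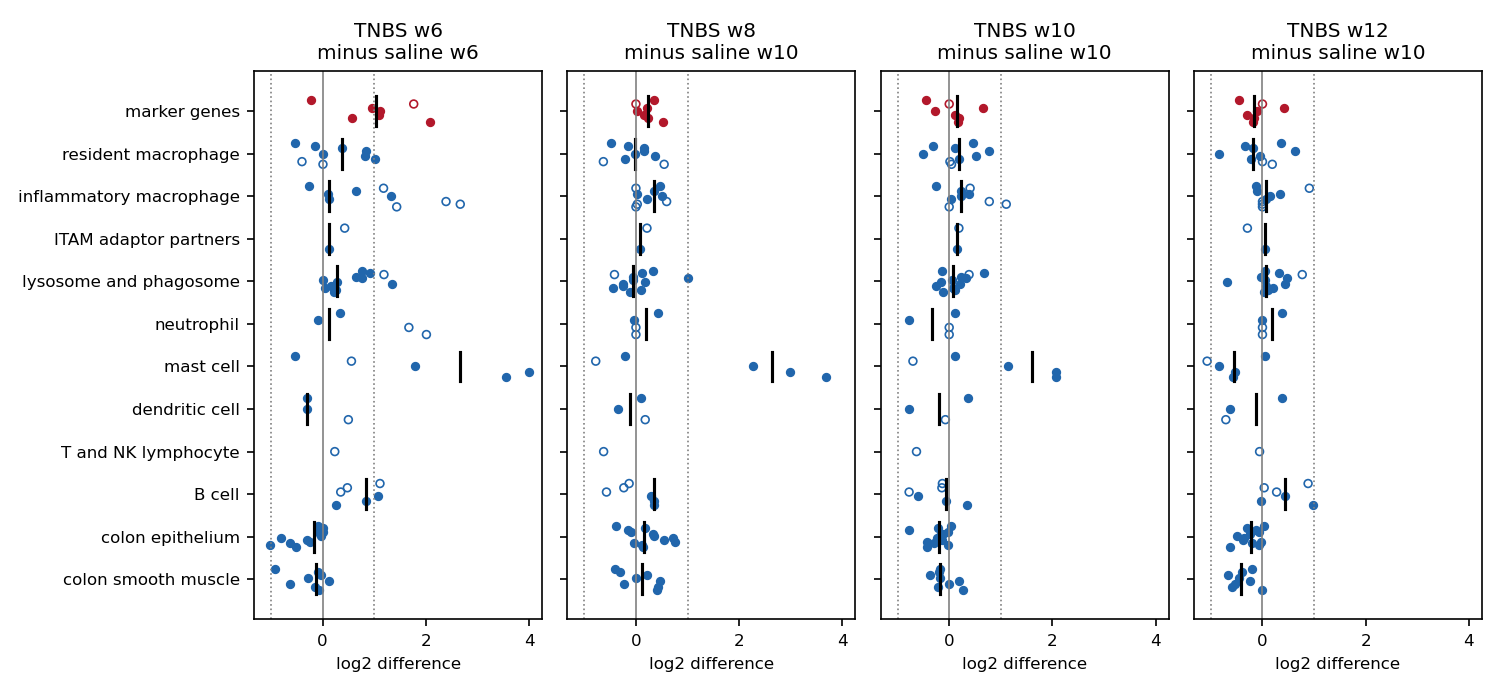
Log2 difference of the 7 measured markers (top line, red) and of listed genes that passed the lower limit (blue), in the 4 matched comparisons on 1 scale. Filled points are genes also kept by their mean over the 6 pools, open points are those that were not, black bars are medians of the filled points and dotted lines mark a 2-fold difference. At week 6 these medians are 1.03 for the markers, 0.37 for the resident and 0.13 for the inflammatory list, and the open points of the inflammatory list all lie above 1.

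Other leukocytes use some of the same genes, and the values of their markers stand here beside those of the macrophage markers. The summed signal of 13 neutrophil markers was 1517 in TNBS_w6, 878 to 1158 in the later TNBS pools and 990.4 to 1210 on the saline arrays. Of the 4 that passed, S100a8 and S100a9, the subunits of calprotectin, were at least 4.03-fold and 3.18-fold higher in TNBS_w6, and lay under the floor in all other pools. Both passed through TNBS_w6 alone, so a difference of at least 2-fold was fixed by the limit. The other 2, Csf3r and Ly6g, had log2 differences of -0.10 and 0.33 at week 6. Of the neutrophil granule genes, Mpo, Ltf and Ngp stayed under the floor on all arrays, at 32.9 or less. Elane, Camp and Lcn2 read above the floor on the saline arrays, at 60.1 to 77.3, 53.7 to 60.1 and 76.7 to 86.3. In TNBS_w6 these genes gave 73.2, 45.5 and 85.2, and none of them passed the lower limit.

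The 10 mast cell markers summed to 4029 in TNBS_w6, 2302 in TNBS_w8, 1161 in TNBS_w10 and 388.2 in TNBS_w12. On the saline arrays they summed to 618.7 to 844.6. Of the 5 that passed the lower limit, Mcpt1, Mcpt2 and Cma2 were each at least 2-fold higher at week 6. These 3 proteases gave 1712.3, 1291.8 and 562.2 of the TNBS_w6 sum. Kit went the other way, with 148.7 in TNBS_w6 against 227.2 and 203.3 on the saline_w6 arrays. Tpsb2 gave 122.6 in TNBS_w6 against 59.9 and 115.8, and 70.4 in TNBS_w12 against 148.1 in saline_w10. The 7 B cell markers summed to 1422 in TNBS_w6, 1006 in TNBS_w8, 795.9 in TNBS_w10 and 1236 in TNBS_w12, against 854.1 to 904.6 on the saline arrays. Ms4a1 among them was 2.11-fold higher at week 6. Fcer2a, which passed the lower limit through TNBS_w6 and TNBS_w12 alone, was at least 2.16-fold higher. The 9 T and NK cell markers summed to 315.3 in TNBS_w6 and 144.1 to 171.7 later, against 195.8 to 237. Of these 9 genes 6 lay under the floor on all arrays, so no difference is read from this sum, and the 1 that passed, Cd4, had a log2 difference of 0.24 at week 6. The 7 dendritic cell markers summed to 450.8 to 569.1 in the TNBS pools, against 513.7 to 672.5. Of the mast cell and B cell genes, 3 of 10 and 1 of 7 lay under the floor on all arrays. Mast cell and B cell sums were above the saline range in TNBS_w6, the mast cell sum mainly through Mcpt1, Mcpt2 and Cma2. The neutrophil sum was above it through S100a8 and S100a9, at 201.6 and 159.2 in TNBS_w6. Both passed through that pool alone, and 6 of 13 genes lay under the floor on all arrays, so no difference is read from this sum. The part of these cell types in the signals of Tyrobp, Lyz2 and Cd14 was not tested.

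No gene of any of these lists passed the adjusted p of 0.05 in the limma models, in either direction.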

How the data were processed

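Per the labels, the authors pooled RNA over the mice of a group (10 µg), computed linear intensities with Affymetrix Microarray Suite 5.0 and set each array to a target of 150. A check of the 2% trimmed mean gave 150.1 on all 7 arrays. No genome build is given in the sources used here.

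The members and lists were chosen with earlier results of these data known. Of 12488 probe sets, 66 controls were left out. The platform annotation gave 10833 probe sets 1 symbol, 396 several and 1193 none. Symbols were updated through Entrez identifiers for 10817 of them with RefSeq's GRCm38.p6 table. Of several probe sets of a gene, that with the highest average log2 signal was used. Values under 50 were set to 50, the saline_w6 arrays were averaged on the log2 scale, and genes reaching 100 in any pool were kept (4316 of 8251). List medians with genes kept by their mean over pools were added after seeing the data.

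Matched comparisons follow the series' design and have 1 pool a side, hence no test. Two-sided moderated tests came from limma 3.58.1 in R 4.3.3, with variances moderated along an intensity trend and p-values adjusted by Benjamini-Hochberg over 4316 genes. The models had the control set as covariate (3 residual degrees of freedom), or in addition its interaction with TNBS (2). They measure the spread between pools, not mice, and the fit was tested on simulated data.

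All 9 markers are named. Other genes are the 8 with the highest r to the markers' mean profile, and listed genes at least 2-fold different in a matched comparison, up to 5 a list. C1qc, Cx3cr1, Adgre1, Nos2, Tnf, Il6, Syk, Btk, Fcgr2b, Csf3r, Ly6g, Cd4, Mpo, Ltf, Ngp, Krt8 and Tagln were named after their values were seen. So were Elane, Camp, Lcn2, Kit, Guca2a and Lamp1. The number of arrays limits the precision.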

Additional observations from a re-analysis of the deposited data

Results flagged for a closer look

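The probe set shared by Lyz1, the lysozyme of Paneth cells, and Lyz2 was kept out of the comparisons because it cannot be given to 1 gene. Its signal was 1434.7 in TNBS_w6, 545.9 in TNBS_w8, 550.3 in TNBS_w10 and 910.6 in TNBS_w12, against 601.1 and 565.4 on the saline_w6 arrays and 665.6 in saline_w10. The TNBS_w6 signal was above that of every saline array, 2.46-fold above saline_w6. In TNBS_w12 it was 1.37-fold above saline_w10, whereas the probe set of Lyz2 alone was 1.07-fold lower there.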

How the results depend on the processing

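Of the matched counts, the 4 markers at least 2-fold higher at week 6 became 2 with the mean of a gene's probe sets (Tyrobp and Arg1 stayed). They became 3 with a floor of 100, where Arg1 was at 0.77 on the log2 scale, 3 under log2(value + 50), where C1qb was at 0.88, and 3 with genes kept by their mean, where Arg1 left. Leaving out either saline_w6 array gave 4 to 5, the fifth being Cd14. The count of 0 in TNBS_w8 became 1 (Tyrobp) against saline_w6. The interaction count of 0 became 1, Arg1, with a floor of 100 (limma adjusted p = 0.0104) and without a filter on low values (limma adjusted p = 4.9e-05, with 1 as the highest over the alternatives). In these settings 296 of 4317 and 2890 of 8251 genes had no residual spread, beside 8 of 4316. Over all genes the interaction then gave 185 and 488 calls, the later effect 63 and 177, and the pooled model 17 without the filter and 2 without TNBS_w12. Counts of markers were 0 in the pooled model under every alternative, with 0 to 0 over 8 fits that left out a pool or array. The order of times held for 3 markers, and for 4 under log2(value + 50). Of 432 marker differences recomputed, 415 moved by less than 0.29 and 17 by more, and none at least 2-fold turned in sign. Many of the 432 could not move. A change of filter left the differences as they were, and leaving out a saline_w6 array left those against saline_w10. The 415 are therefore not a measure of stability. No paired analysis was possible because no group but saline_w6 has replicate numbers.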

Other observations

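Of 20 genes of the lysosome and phagosome, 16 were on the array and 12 passed the lower limit. At week 6 their log2 differences ran from 0.01 (Lamp1) to 1.34 (Ctsh), with a median of 0.46, beside -0.02 for all genes. Of the 12, 2 were at least 2-fold higher, beside 2.55% of all 4316 genes. Over the 11 genes kept by their mean over pools the median was 0.27. Of these, 1 was at least 2-fold higher, beside 1.98% of all genes kept in this way. Ctsh, a lysosomal protease, gave 255.8 in TNBS_w6 against 113.6 and 90.4 on the saline_w6 arrays, 2.52-fold higher. Its signal in saline_w10 was 206.2, so the saline pools differed by 1.02 on the log2 scale without TNBS. Lipa, the lysosomal acid lipase, gave 120.9 in TNBS_w6 against 56.3 and 39.4 on the saline_w6 arrays, at least 2.28-fold higher.

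Lamp2, a protein of the lysosome membrane, was the 1 gene of this list at least 2-fold higher at a later time, with 801.7 in TNBS_w8 against 397.4 in saline_w10. It gave 672.3 in TNBS_w6, 495.4 in TNBS_w10 and 552.5 in TNBS_w12, against 433 and 364.2 on the saline_w6 arrays. Every TNBS array of Lamp2 was thus above every saline array, as in 4.96% of the 4316 genes. Lamp1, its close relative, gave 2839 to 3061 in the TNBS pools and 2764 to 3031 on the saline arrays, which overlapped. No gene of the list passed the adjusted p in limma's models.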
